A study of Macaca fascicularis with 6 samples.

Results

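The genes described here are 9 transcripts that report on cell contractility and on YAP, a co-activator of transcription that responds to tension. Of them, 6 encode parts of the contractile apparatus (*ACTA2*, *TAGLN*, *MYL9*, *CNN1*, *TPM1* and *TPM2*) and 3 are targets of YAP (*CCN1*, *CCN2* and *ANKRD1*). They were chosen by name, with earlier results of these data known. The deposited matrices list 8 of the 9 (5 contractile genes and 3 YAP target genes) among 14020 genes in all. *TPM1* is not listed and was not analysed here. Each gene was followed through 5 samples of the cynomolgus monkey, and within a sample it was set against reads of *COL1A1*, which encodes a chain of the type I collagen of fibrous tissue.

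The samples were read by TAS-Seq, a single-cell RNA-seq method on BD Rhapsody beads. cyiPSC were undifferentiated induced pluripotent stem cells of a single line that carries EGFP behind a constitutive promoter. Pre-transplant cyiPS-Cart was the cartilage organoid grown from that line, and post-transplant cyiPS-Cart was the same material recovered from chondral defects of the knee 4 months after surgery. cyAC was articular cartilage and cyFT was the fibrous tissue that filled empty chondral defects, both from wild-type animals. The labels give an age of 3 to 4 years to the recipients and to the donors of cyAC and cyFT, and a wild-type genotype also to the post-transplant sample, whose cells carry the EGFP of the donor line. All organoid cells came from that line and had been cultured with BMP2, TGF-β1 and GDF5. Pre-transplant cells were also digested in medium that held these factors. Post-transplant cells had since been 4 months in the joint and were digested in medium without them. Each condition was 1 sample, so no test was possible, and every 95% interval below covers counting error only. Transplanted sites of a monkey were combined before sequencing, and whether a sample also pools monkeys is not given in the sources used here.

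cyiPSC and pre-transplant cyiPS-Cart shared a library, cyAC and cyFT shared another, and post-transplant cyiPS-Cart had its own, so that in any comparison with the post-transplant cells the library and the condition cannot be told apart. The number of cells was 2500 for cyiPSC, 3527 for pre-transplant cyiPS-Cart and 320 each for post-transplant cyiPS-Cart, cyAC and cyFT, and a second set of 320 pre-transplant cells was deposited beside the latter 3. Median reads per cell were between 27499.5 in cyFT and 143075 in cyiPSC, and the counts were taken as reads, since no molecular identifiers were counted. EGFP reads were found in 100% of the cells of the 3 cyiPSC-derived samples and in 0 cells of cyAC and of cyFT, which at 3 cells of 320 allows a share of cells with reads of up to 0.938% in each (1.15% by the exact 95% interval), after the authors' removal of low counts. Cell barcodes shared between libraries numbered at most 2. Of 7 chondrocyte markers, all had reads in cyAC and their summed level was 67417 CPM (the reads of a gene scaled to 1000000 reads in all), against 32817 CPM in cyFT. Of 7 fibroblast markers, all had reads in cyFT, at 51931 CPM against 15868 CPM in cyAC. The same 7 markers summed to 25775 CPM in the 320 pre-transplant cells and to 78900 CPM in post-transplant cyiPS-Cart, the highest of the samples. cyFT was therefore a mixture on these markers, with *COL1A1* reads in 203 of its 320 cells and *COL2A1* reads, which mark cartilage, without *COL1A1* reads in 84.

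Contractile genes encode the actin, myosin and actin-binding proteins of stress fibres. Many are driven by SRF with its co-activators of the MRTF family, which enter the nucleus when actin polymerizes, and they mark smooth muscle cells and the myofibroblasts of scars. YAP and its relative TAZ enter the nucleus of spread or stretched cells, bind TEAD factors and switch on matricellular genes such as *CCN1* (CYR61) and *CCN2* (CTGF). In cartilage, CCN2 is known as a growth factor of chondrocytes, whereas in other tissues it is known for its part in fibrosis.

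Levels of the contractile genes were set out as the summed reads of all cells of a sample in CPM, with exact Poisson intervals in brackets. *ACTA2*, which encodes the smooth muscle actin used as the classic myofibroblast marker, stood at 44.3 [43.6–44.9] CPM in cyiPSC, 106 [105–107] in pre-transplant cyiPS-Cart, 13.4 [12.1–14.7] in post-transplant cyiPS-Cart, 9.13 [7.49–11.0] in cyAC and 52.6 [48.4–57.0] in cyFT. Its highest level was thus in the organoid before transplantation and its lowest in native cartilage. *TAGLN*, which encodes the actin-binding protein transgelin, stood at 1648 [1644–1652] CPM in cyiPSC, 384 [382–387] in pre-transplant cyiPS-Cart, 38.7 [36.5–41.0] in post-transplant cyiPS-Cart, 97.9 [92.4–104] in cyAC and 504 [491–517] in cyFT. *MYL9*, which encodes a regulatory light chain of non-sarcomeric myosin, stood at 265 [264–267], 25.8 [25.2–26.5], 8.88 [7.84–10.0], 49.6 [45.7–53.8] and 80.2 [75.0–85.6] CPM in the same order of samples. For *TAGLN* and *MYL9* alike, cyiPSC was highest, cyFT exceeded cyAC, and post-transplant cyiPS-Cart was lowest.

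*TPM2*, which encodes a tropomyosin that lies along actin filaments, varied less. Its level was 310 [308–312] CPM in cyiPSC, 122 [121–123] in pre-transplant cyiPS-Cart, 111 [108–115] in post-transplant cyiPS-Cart, 72.0 [67.2–77.0] in cyAC and 132 [125–139] in cyFT. *CNN1*, which encodes calponin, a smooth muscle actin-binding protein, stood at 183 [181–184] CPM in cyiPSC and 4.02 [3.77–4.28] CPM in pre-transplant cyiPS-Cart. It had 5 reads in 1 cell of cyAC and 0 reads in post-transplant cyiPS-Cart and cyFT, where 3 reads would have been 0.1 and 0.271 CPM. The pre-transplant *CNN1* level was 45.4-fold below that of cyiPSC, its library partner. The pluripotency genes *LIN28A*, *NANOG* and *SOX2*, which mark cyiPSC, were 39.4-, 39.9- and 55.2-fold lower in pre-transplant cyiPS-Cart than in cyiPSC. *CNN1* reads were in 17.0% of pre-transplant cells (median 59249 reads per cell) and in 83.1% of cyiPSC (median 143075 reads). In pre-transplant cells *SOX2* reads were in 18.4%, *LIN28A* reads in 2.15% and *NANOG* reads in 1.98%, so that the share with *CNN1* was close to that of *SOX2* and above those of the other 2 genes. Other genes that were high in cyiPSC had other ratios, such as *ACTG2* (184-fold lower) and *MYH11* (8.73-fold lower), and carry-over between the pooled cells was not tested.

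The smooth muscle actins share long stretches of near-identical sequence, as do the tropomyosins, so that reads of *ACTA2* and *TPM2* could be split with their relatives and both levels are uncertain. The listed actin relatives *ACTG2*, *ACTA1* and *ACTC1* were at 1112, 716 and 942 CPM in cyiPSC, and at 6.03, 3.16 and 3.72 CPM in pre-transplant cyiPS-Cart. They were at 0 in post-transplant cyiPS-Cart and cyFT and at most at 0.254 CPM in cyAC. The *ACTA2* level of cyiPSC thus stood beside far higher levels of its relatives, whereas that of the other 4 samples did not. The relatives *TPM3* and *TPM4* were at 841 and 2414 CPM in cyiPSC and between 104 and 307 CPM (*TPM3*) and between 718 and 2088 CPM (*TPM4*) in the others.

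The YAP target genes ran in another order. *CCN1* stood at 1073 [1069–1076] CPM in cyiPSC, 2553 [2546–2559] in pre-transplant cyiPS-Cart, 3247 [3226–3267] in post-transplant cyiPS-Cart, 3755 [3720–3790] in cyAC and 1548 [1525–1571] in cyFT. *CCN2* stood at 49.6 [48.9–50.2], 287 [285–289], 126 [122–131], 1085 [1066–1103] and 679 [664–694] CPM. Both were highest in cyAC and lowest in cyiPSC, and cyFT was below cyAC for both. *ANKRD1*, which encodes an ankyrin repeat protein of nucleus and sarcomere, stood at 26.9 [26.4–27.4], 18.0 [17.5–18.5], 15.0 [13.7–16.5], 37.4 [34.0–41.0] and 35.9 [32.5–39.6] CPM. Neighbours in these orders differed beyond their counting intervals, except for *ANKRD1* in cyAC and cyFT, and for *CNN1*, at 0 in post-transplant cyiPS-Cart and cyFT, where the interval of cyFT (0–0.333 CPM) also overlapped that of cyAC (0.137–0.987 CPM).

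**Figure D1:**
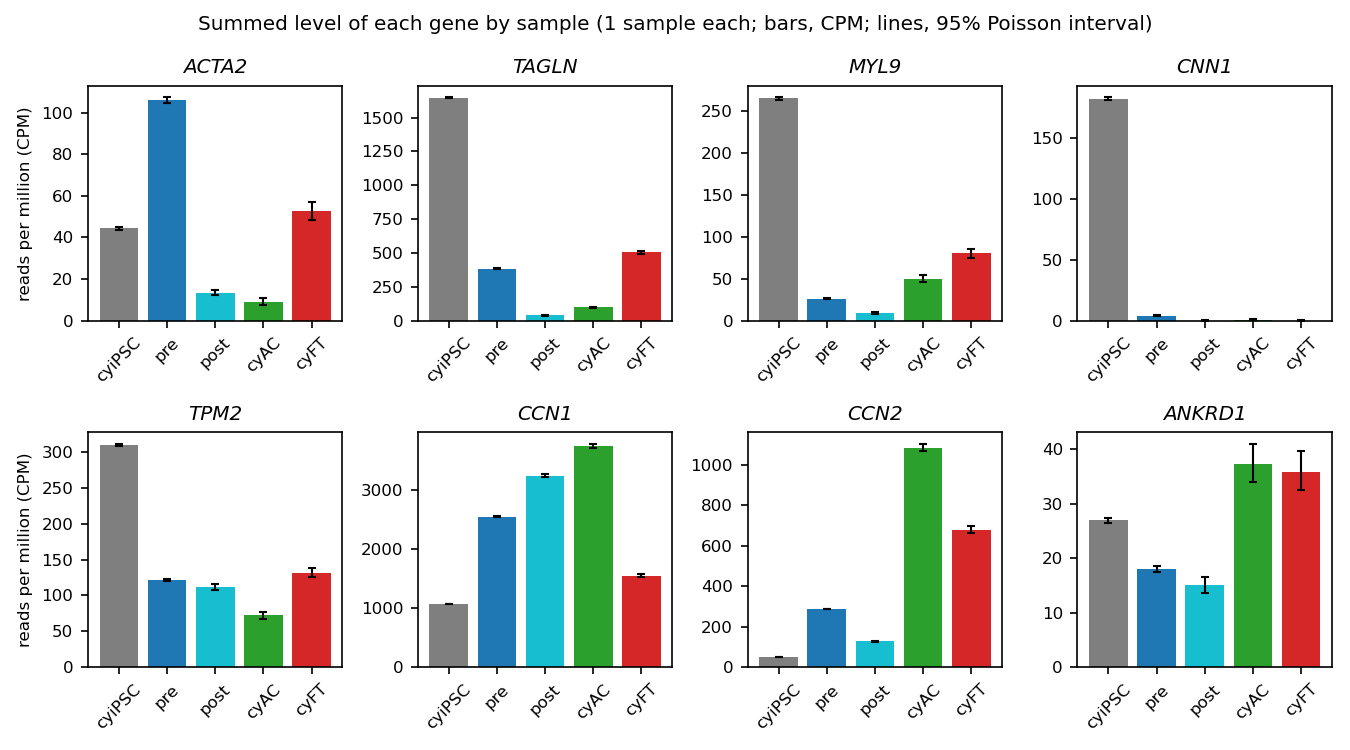
Level of each listed gene (y axis, CPM of the summed reads, linear scale from 0) in the 5 samples (x axis, 1 sample each), with bars for CPM and lines for 95% Poisson intervals. *ACTA2* peaks at 106 CPM in pre-transplant cyiPS-Cart (pre), the other contractile genes peak in cyiPSC, and *CCN1* and *CCN2* peak in cyAC at 3755 and 1085 CPM.

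Shares of cells with reads were compared in the 4 sets of 320 cells, as deposited and after each cell was thinned to 12191 reads. The authors' background correction sets low counts of strongly expressed genes to 0, so that a cell with *TAGLN* reads held at least 9 in the first library, a cell with *ACTA2* reads at least 6, and a cell with *CCN1* reads at least 11 in any sample. *TAGLN* reads were in 61.6% of pre-transplant, 20.6% of post-transplant, 32.2% of cyAC and 44.4% of cyFT cells, or 59.6%, 11.3%, 23.7% and 42.4% at equal depth. *ACTA2* reads were in 19.7%, 10.6%, 7.19% and 11.9% of the cells, or 18.5%, 4.38%, 4.22% and 9.38% at equal depth. For both genes the pre-transplant share was the highest after thinning, whereas the summed *TAGLN* level was highest in cyFT. The thinned *ACTA2* intervals (binomial 95%) of post-transplant cyiPS-Cart (2.41–7.23%), cyAC (2.27–7.11%) and cyFT (6.27–13.3%) overlapped. *MYL9* reads were in 14.1%, 3.13%, 20.5% and 28.8% of thinned cells, and *TPM2* reads in 59.9%, 41.9%, 30.8% and 43.8%.

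Among the YAP targets, *CCN1* reads were in 80.6% of pre-transplant, 92.5% of post-transplant, 80.9% of cyAC and 51.9% of cyFT cells as deposited. *CCN2* reads were in 73.4%, 31.9%, 90.6% and 67.0% of thinned cells. Before thinning, *ANKRD1* reads were in 59.4% to 66.6% of the cells of these samples with no clear order, and at equal depth in 19.1%, 16.6%, 34.7% and 31.6%. The equal-depth intervals of *ANKRD1* overlapped between pre- and post-transplant cyiPS-Cart and between cyAC and cyFT, so that no order was read within either pair.

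**Figure D2:**
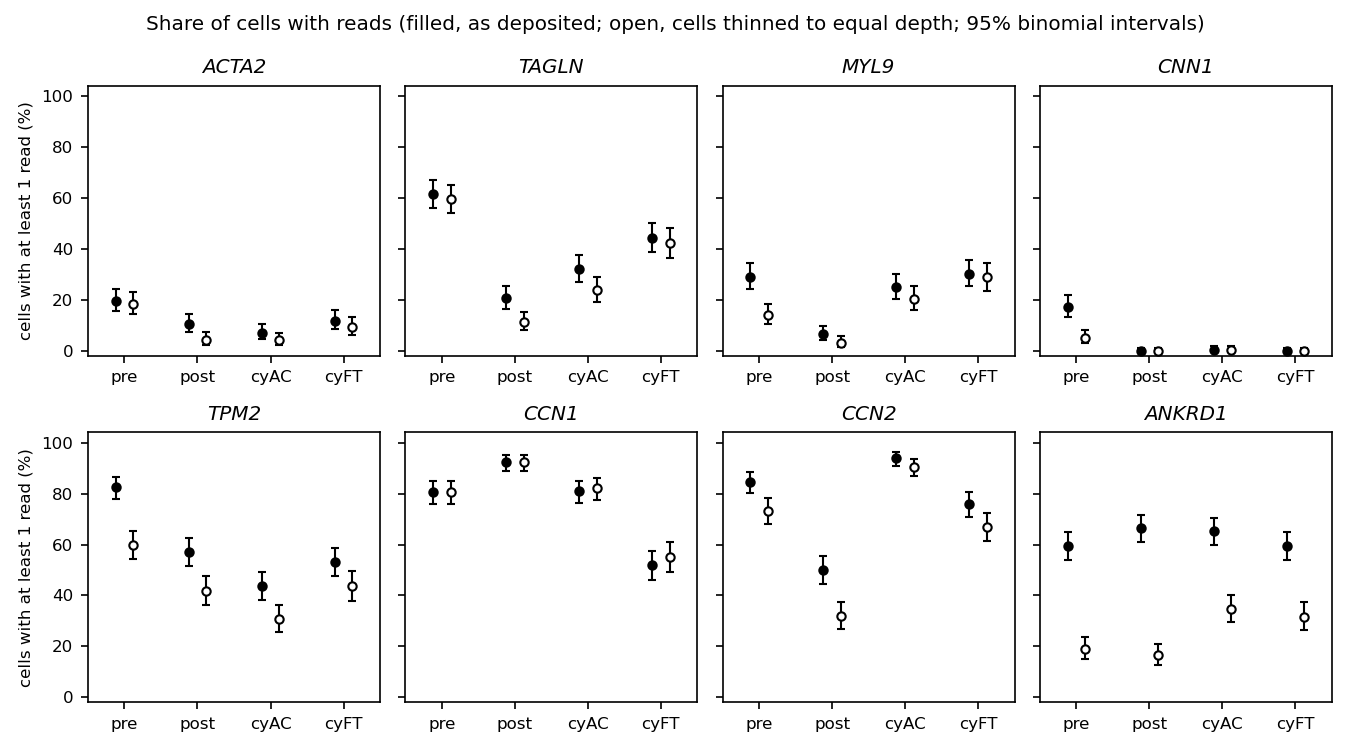
Percentage of cells holding reads of each gene (y axis, %) in the 4 sets of 320 cells (x axis), as deposited (filled) and after thinning each cell to 12191 reads (open), with exact binomial 95% intervals. *TAGLN* is near 60% in pre-transplant cells and 11.3% in thinned post-transplant cells, *CCN1* is lowest in cyFT, and the thinned *ANKRD1* shares of cyAC and cyFT lie above those of the organoids.

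A few cells carried much of some levels. The 4 of 320 cells with the highest *ACTA2* level held 53.3% of its reads in cyFT, 59.3% in cyAC and 40.6% in post-transplant cyiPS-Cart. In post-transplant cyiPS-Cart, 4 cells held 60.6% of the *TAGLN* reads and 66.0% of the *MYL9* reads. The *TAGLN* reads of cyFT were spread more widely, with 15.9% in its top 4 cells.

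The first comparison asked what differs between the stem cells and the organoid made from them, within 1 library. Differences are given as ratios of CPM and as log2 ratios of CPM + 1, and a gene was counted as past 2-fold at a log2 ratio of at least 1 in size, among genes with at least 10 CPM in either group and reads in at least 10 cells. *ACTA2* was 2.40-fold (95% interval 2.35–2.44) higher in pre-transplant cyiPS-Cart than in cyiPSC, a log2 ratio of 1.24, whereas *TAGLN* was 4.29-fold (4.26–4.32) lower, *MYL9* 10.3-fold (10.0–10.5) lower and *TPM2* 2.54-fold (2.51–2.57) lower. *CCN1* was 2.38-fold (2.37–2.39) and *CCN2* 5.79-fold (5.70–5.88) higher, and *ANKRD1* was 1.5-fold lower. In all, 3 of the 8 listed genes were past 2-fold higher and 4 lower, against 16.5% higher and 37.4% lower of 8576 genes (53.9% in either direction). The size of the *ACTA2* excess varied between alternatives while its sign did not. Its log2 ratio was 0.73 from the mean of per-cell CPM, 0.99 without the 1% of cells with the highest level, and 1.90 with TMM factors. The share of cells with *ACTA2* reads went the other way, at 20.9% of pre-transplant cells against 25.6% of cyiPSC. At equal depth it was 21.3% against 23.6%, with overlapping intervals. The TMM factors shifted every log2 ratio of this comparison up by 0.67, which left *TPM2* at −0.67 and moved *ANKRD1* from −0.56 to 0.08.

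Of the other contractile and actin-bundle genes, 24 passed the filter, of which 4 were past 2-fold higher in the organoid and 11 lower, with a median log2 ratio of −0.66 (−0.61 over all genes). *ACTG2* differed most, at 6.03 against 1112 CPM, followed by *LMOD1* and *MYH11*, genes of smooth muscle. Of 14 other YAP target genes, 8 were higher and 2 lower, with a median of 1.93. *CCDC80* (413 against 7.25 CPM), *IGFBP3* (604 against 16.4 CPM) and *TGFB2* (108 against 2.24 CPM) led them, and encode secreted proteins. Of 13 matrix and adhesion genes of myofibroblasts, 10 were higher and 1 lower, led by tenascin-C (*TNC*, 2543 against 7.43 CPM). *SRF* itself was lower in the organoid, at 55.0 against 174 CPM, as were the pathway genes *WWC1* and *TEAD2*, at 3.58 against 62.1 CPM and 8.55 against 103 CPM. Early response genes were higher in the organoid in 6 of 7 cases (*FOS* at 665 against 31.4 CPM, *JUN* at 236 against 48.5 CPM), as were 7 of 7 fibroblast and 6 of 6 chondrocyte markers, and their part in the *CCN1* and *CCN2* values was not tested.

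The second comparison set the organoid after transplantation against the organoid before, in 320 cells each. The growth factors of culture and digestion, the library and the condition cannot be told apart in it. *TAGLN* was 9.49-fold (8.92–10.1) lower after transplantation (38.7 against 367 CPM), and *ACTA2* 6.67-fold (5.98–7.44) lower (13.4 against 89.1 CPM). *MYL9* was at 8.88 against 18.5 CPM, a log2 ratio of −0.98, just short of 2-fold. It passed 2-fold under 8 alternatives, at −1.03 to −1.53, and stood at −0.51 among cells with only *COL2A1* reads. *CNN1* had 0 reads against 87, at least 40.7-fold lower if the floor is taken as 3 reads in the sample, while the exact interval of the ratio starts at 32.4-fold. *TPM2* differed little (111 against 126 CPM). The contractile genes were thus lower as far as *TAGLN* and *ACTA2* go, and near equal for *TPM2*.

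*CCN2* was 2.46-fold (2.36–2.56) lower after transplantation, at 126 against 311 CPM, whereas *CCN1* (3247 against 2744 CPM) and *ANKRD1* (15.0 against 17.6 CPM) were within 2-fold. Of the 7 genes past the filter, 3 were past 2-fold lower and 0 higher, against 18.5% lower and 8.92% higher of 7587 genes (27.4% in either direction). Other contractile and actin-bundle genes leaned the same way, with 16 of 21 lower and 0 higher and a median log2 ratio of −1.49 (−0.25 over all genes). The largest differences were in *FLNA*, the actin cross-linker filamin A (17.5 against 110 CPM), *ZYX*, the focal adhesion protein zyxin (38.4 against 230 CPM), and *DES* (4.19 against 25.6 CPM). *SRF* was at 13.3 against 53.2 CPM and its co-activator gene *MRTFA* at 4.99 against 23.9 CPM. Other YAP targets had a median of −0.03, with *IGFBP3* lower (48.1 against 691 CPM) and *CRIM1* (622 against 109 CPM) and *F3* higher. Early response genes, which tissue dissociation can raise, were higher in 7 of 8 cases, for example *FOS* at 5742 against 623 CPM. Fibroblast markers were higher in 4 of 7 cases (*DCN*, *COL1A2*, *COL3A1* and *LUM*) and lower in 1 (*POSTN*). The part of either set in the values above was not tested.

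The third comparison asked how the tissue filling an empty defect differs from articular cartilage, within 1 library. *ACTA2* was 5.76-fold (4.68–7.14) higher in cyFT than in cyAC (52.6 against 9.13 CPM) and *TAGLN* 5.15-fold (4.83–5.49) higher (504 against 97.9 CPM). *MYL9* (1.62-fold) and *TPM2* (1.83-fold) were also higher, short of 2-fold. *CCN1* was 2.43-fold (2.38–2.47) lower in cyFT (1548 against 3755 CPM), *CCN2* was 1.60-fold lower (log2 ratio −0.68), and *ANKRD1* was near equal (35.9 against 37.4 CPM). *CCN2* passed 2-fold with the mean of per-cell CPM (−1.11) and at equal depth (−1.06). Of 7 genes past the filter, 2 were past 2-fold higher and 1 lower, against 12.1% higher and 3.92% lower of 7892 genes (16.0% in either direction).

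Other contractile genes were higher in cyFT in 4 of 22 cases and lower in 0, with a median log2 ratio of 0.53 (0.19 over all genes), and *MYH11* (10.6 against 3.72 CPM) and *FLNA* (236 against 99.9 CPM) differed most. Of 14 other YAP targets, 4 were higher, among them *ASAP1* (24.2 against 5.33 CPM) and *MYOF* (61.3 against 20.5 CPM), and 2 were lower, *IGFBP3* and *TGFB2*. *AMOT*, which encodes angiomotin, a junction protein that binds YAP, was at 187 CPM in 86.9% of cyFT cells against 13.2 CPM in 25.6% of cyAC cells. Of the myofibroblast matrix genes, *POSTN* (38.0 against 3.72 CPM), *TNC* (2521 against 771 CPM) and *CDH11* (72.6 against 22.3 CPM) were higher and 3 were lower. Immune markers were higher in cyFT in 7 of 7 cases, at a sum of 759 against 29.0 CPM, and osteoblast markers in 3 of 3, at 1117 against 36.9 CPM. Early response genes were higher in 3 of 8 cases (*NR4A1*, *JUN* and *FOS*, the last at 1836 against 754 CPM), and the part of these sets in the values above was not tested.

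Post-transplant cyiPS-Cart was also set against cyAC, the tissue it lies in. It shares its samples with the comparisons above. *CCN2* was 8.57-fold (8.27–8.89) lower in the organoid (126 against 1085 CPM), *MYL9* 5.59-fold (4.83–6.49), *TAGLN* 2.53-fold (2.33–2.75) and *ANKRD1* 2.49-fold (2.17–2.84) lower. *ACTA2* (13.4 against 9.13 CPM), *TPM2* (111 against 72.0 CPM) and *CCN1* (3247 against 3755 CPM) were within 2-fold. Of 7 genes, 4 were past 2-fold lower and 0 higher, against 15.8% lower and 10.7% higher of 7615 genes (26.5% in either direction). *AMOT* was at 341 against 13.2 CPM. Of 14 other YAP targets, 5 were higher in the organoid and 0 lower, with a median log2 ratio of 0.63 (−0.08 over all genes), among them *ASAP1* (34.6 against 5.33 CPM) and *IGFBP3* (48.1 against 12.7 CPM). Early response genes were higher in 5 of 8 cases (*FOS* at 5742 against 754 CPM) and fibroblast markers in 4 of 7, and the part of either in these values was not tested.

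Within a tissue, cells with *COL1A1* reads were set against cells without. Because of the background correction, a cell with *COL1A1* reads held at least 81 of them in cyFT and at least 277 in pre-transplant cyiPS-Cart. In cyFT, 203 cells had *COL1A1* reads (median 23049 reads per cell) and 117 had none (median 43272). *ACTA2* was at 101 CPM in the former and 5.17 CPM in the latter, a 19.6-fold ratio (13.5–29.5). Its reads were in 15.8% against 5.13% of cells, and at equal depth its level was 85.9 against 9.51 CPM. *MYL9* was 3.00-fold (2.58–3.51) higher in the cells with *COL1A1* reads (121 against 40.3 CPM).

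*TAGLN* went the other way, at 338 CPM in the cyFT cells with *COL1A1* reads and 666 CPM in those without, with reads in 36.5% against 58.1% of cells. Its log2 ratio of −0.98 was just short of 2-fold, and passed it at −1.32 without the 23 cells that held reads of at least 3 immune or 3 osteoblast markers, all of which lacked *COL1A1* reads. *CCN2* was 7.04-fold (6.57–7.55) lower in the cells with *COL1A1* reads (167 against 1178 CPM) and *CCN1* 3.19-fold (3.08–3.31) lower (734 against 2343 CPM). *TPM2* (148 against 117 CPM) and *ANKRD1* (34.1 against 37.6 CPM) were within 2-fold. Of 7 genes, 2 were past 2-fold higher and 2 lower, against 13.7% higher and 11.0% lower of 8053 genes (24.7% in either direction). Of the 4 past 2-fold, *ACTA2* and *MYL9* were thus with the fibroblast collagen and *CCN1* and *CCN2* were opposite to it.

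The pathway lists were mixed across this split of cyFT. Other contractile genes were higher in the cells with *COL1A1* reads in 3 of 22 cases and lower in 5, among the latter *CNN2* (23.0 against 121 CPM) and *ACTG1* (2005 against 6966 CPM). Of the other YAP targets, *AMOTL2* was lower (14.1 against 118 CPM), whereas *PTPN14* (38.3 against 9.80 CPM) and *MYOF* (94.4 against 29.1 CPM) were higher, with 3 higher and 2 lower of 14. *SRF* was lower, at 23.0 against 74.7 CPM. Among matrix genes *TNC* (5052 against 50.1 CPM), *POSTN* (75.6 against 1.25 CPM) and *CDH11* (139 against 7.84 CPM) were higher. *FOS* was higher as well, at 3011 against 689 CPM, and its part in these differences was not tested.

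In pre-transplant cyiPS-Cart, 928 of 3527 cells had *COL1A1* reads. *ACTA2* was 3.26-fold (3.18–3.34) higher in them (208 against 63.7 CPM, in 35.6% against 15.6% of cells) and *MYL9* 3.5-fold (3.32–3.68) higher (52.0 against 14.9 CPM). *CCN1* was 2.72-fold (2.70–2.74) lower (1152 against 3138 CPM) and *CCN2* 2.48-fold (2.43–2.53) lower (140 against 348 CPM). *TAGLN* (411 against 373 CPM), *TPM2* (149 against 110 CPM, 1.35-fold higher, 1.32–1.38) and *ANKRD1* (18.3 against 17.9 CPM) were within 2-fold. The 4 genes past 2-fold were the same genes, in the same directions, as in cyFT. The early response genes *FOS* (332 against 803 CPM) and *JUN* (137 against 277 CPM) were lower in the cells with *COL1A1* reads here, opposite to *FOS* in cyFT, and their part in the *CCN1* and *CCN2* values was not tested.

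The background in this split was small, with 2.16% of 7301 genes past 2-fold higher and 1.15% lower (3.31% in either direction), against 2 and 2 of the 7 genes past the filter. None of 21 other contractile genes, 14 other YAP targets or 17 Hippo-YAP pathway genes passed 2-fold in either direction. The nearest YAP target was *AMOTL2*, at 106 against 210 CPM, a log2 ratio of −0.98. When cells were split by *COL1A2* reads instead, which 3367 of the 3527 cells held, none of the 4 genes passed 2-fold. The log2 ratios were 0.52 for *ACTA2*, 0.84 for *MYL9*, −0.22 for *CCN1* and −0.27 for *CCN2*. Cells with *COL1A2* reads held as few as 1 and a median of 13, whereas those with *COL1A1* reads held at least 277. The 2 splits thus part different cells, and this one cannot decide on the first.

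The same split in the other samples rested on 54 cells with *COL1A1* reads in post-transplant cyiPS-Cart, 19 in cyAC and 44 in cyiPSC. *ACTA2* was higher in the cells with *COL1A1* reads in each, at 27.9 against 10.2 CPM, 65.4 against 5.90 CPM and 141 against 41.4 CPM. *CCN2* was lower in post-transplant cyiPS-Cart (48.3 against 143 CPM) and in cyAC (296 against 1130 CPM), and higher in cyiPSC (119 against 47.5 CPM). *CCN1* had the same directions, at 2809 against 3341 CPM, 441 against 3945 CPM and 2125 against 1042 CPM. *TAGLN* was higher in the cells with *COL1A1* reads in post-transplant cyiPS-Cart (151 against 14.7 CPM) and cyAC (355 against 83.2 CPM), where cyFT had the opposite order. In post-transplant cyiPS-Cart 6 of 8 early response genes and 2 of 6 chondrocyte markers were also lower in the cells with *COL1A1* reads. In cyAC 6 of 6 chondrocyte markers were lower, and early response genes were higher in 2 and lower in 2 of 8 cases. Smooth muscle, pericyte and fibroblast markers are not given for these 2 splits. The part of any of these sets in the values above, those of *ACTA2* and *TAGLN* included, was not tested.

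Past 2-fold in post-transplant cyiPS-Cart were 3 of 7 genes higher and 1 lower (9.56% and 9.79% of 7437 genes, 19.3% in either direction), in cyAC 4 and 2 of 7 (19.9% and 22.3% of 7579 genes, 42.2% in either direction), and in cyiPSC 4 and 0 of 8 (3.42% and 0.768% of 8199 genes, 4.18% in either direction). In cyiPSC the 4 were *ACTA2*, *CNN1*, *CCN1* and *CCN2*. The 44 cyiPSC with *COL1A1* reads had a median of 310809 reads, against 142162 in the rest. Past 2-fold higher in them were also 6 of 6 fibroblast markers (*COL1A1*, which chose the cells, is one of them), 4 of 6 chondrocyte markers, 9 of 13 myofibroblast matrix genes and 6 of 7 early response genes, whereas 0 of 3 pluripotency genes were past 2-fold. Their part in the higher contractile and YAP target genes was not tested.

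**Figure D3:**
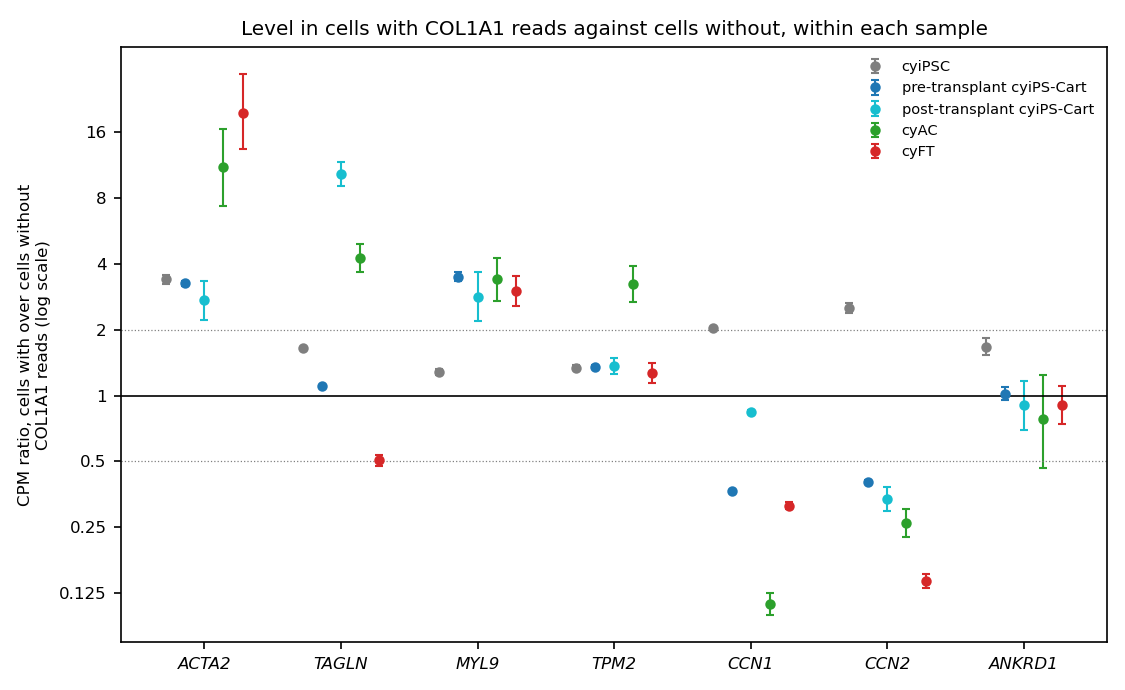
Ratio of the CPM in cells with *COL1A1* reads over that in cells without (y axis, log scale, dotted lines at 2-fold) for 7 genes (x axis) in the 5 samples, with exact conditional 95% intervals. *ACTA2* and *MYL9* lie above 1 in all 5 samples, *CCN2* lies below 1 in all but cyiPSC, and *TAGLN* lies below 1 in cyFT and above 1 in the other 4.

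Levels were also compared by the amount of *COL1A1* in cells that had it. In cyFT the cells with *COL1A1* reads were divided at their median *COL1A1* level into 101 lower and 102 higher cells. *ACTA2* was at 140 CPM in the lower and 61.1 CPM in the higher cells, against 5.17 CPM in cells with none, and *MYL9* was at 127 and 114 CPM against 40.3 CPM. *CCN2* was at 189 and 145 CPM against 1178 CPM, and *CCN1* at 884 and 579 CPM against 2343 CPM. Between lower and higher cells the counting intervals of *MYL9* overlapped, and those of the other 3 genes did not. In pre-transplant cyiPS-Cart *MYL9* was at 14.9, 55.6 and 48.2 CPM in cells with none, lower and higher *COL1A1* and *ACTA2* at 63.7, 249 and 164 CPM, whereas *CCN1* (3138, 1482 and 808 CPM) and *CCN2* (348, 175 and 104 CPM) went down from group to group. Across the 928 pre-transplant cells with *COL1A1* reads, Spearman's rank correlation with the *COL1A1* level was −0.25 for *CCN1* and −0.18 for *CCN2*. Across the 203 such cells of cyFT it was closer to none, at −0.085 and −0.069. Each is a description over cells of 1 library that share its depth.

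Cells were further placed by which collagens they held reads of. In cyFT, 170 cells held *COL1A1* only, 33 held both *COL1A1* and *COL2A1*, 84 held *COL2A1* only and 33 neither. *ACTA2* was at 108 [98.5–118], 74.9 [59.9–92.5], 3.12 [1.71–5.24] and 13.3 [7.44–21.9] CPM in these 4 states. The *COL1A1*-only cells held 80.3% of the *ACTA2* reads of cyFT and 39.0% of all its reads. *MYL9* was at 146, 27.9, 44.6 and 23.0 CPM, so that its excess lay in the *COL1A1*-only cells and not in those with both collagens.

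*TAGLN* was at 404 [386–424] CPM in the *COL1A1*-only cells, 86.2 [70.0–105] in cells with both, 821 [795–848] in *COL2A1*-only cells and 52.3 [39.8–67.4] in cells with neither. The 84 *COL2A1*-only cells held 65.8% of the *TAGLN* reads of cyFT, against 40.4% of all reads, and 73.8% of them had *TAGLN* reads. Most *TAGLN* reads of the fibrous tissue were therefore in cells with cartilage collagen, and most *ACTA2* reads in cells with fibrous collagen. *CCN1* went from 576 CPM in *COL1A1*-only cells through 1331 CPM with both to 2823 CPM in *COL2A1*-only cells, and *CCN2* from 131 through 305 to 1429 CPM. *ANKRD1* was between 27.5 and 40.2 CPM in all 4 states.

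In pre-transplant cyiPS-Cart, 254 cells held *COL1A1* only, 674 both and 2588 *COL2A1* only. *ACTA2* was at 443, 136 and 63.6 CPM in these states, *MYL9* at 118, 32.0 and 14.9 CPM and *TPM2* at 222, 127 and 111 CPM. *CCN1* was at 232, 1431 and 3142 CPM and *CCN2* at 53.0, 167 and 349 CPM. Cells with both collagens were thus between the other states for each of these 5 genes. *TAGLN* was highest in the *COL1A1*-only cells (719 CPM) and lower in the rest (318 and 373 CPM), so that it was near equal over all 928 cells with *COL1A1* reads.

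In post-transplant cyiPS-Cart only 7 cells held *COL1A1* without *COL2A1*. They held 53.5% of its *TAGLN* reads (794 CPM, with reads in 4 of the 7) and 36.2% of its *MYL9* reads, and 2.61% of all reads. The 47 cells with both collagens were at 39.3 CPM of *TAGLN* and the 265 *COL2A1*-only cells at 14.7 CPM. In cyAC the 16 *COL1A1*-only cells were at 415 CPM of *TAGLN*, 173 CPM of *MYL9*, 63.9 CPM of *ACTA2* and 212 CPM of *TPM2*, against 89.5, 47.5, 6.30 and 64.4 CPM in its 276 *COL2A1*-only cells. Few cells decided these values in both samples.

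**Figure D4:**
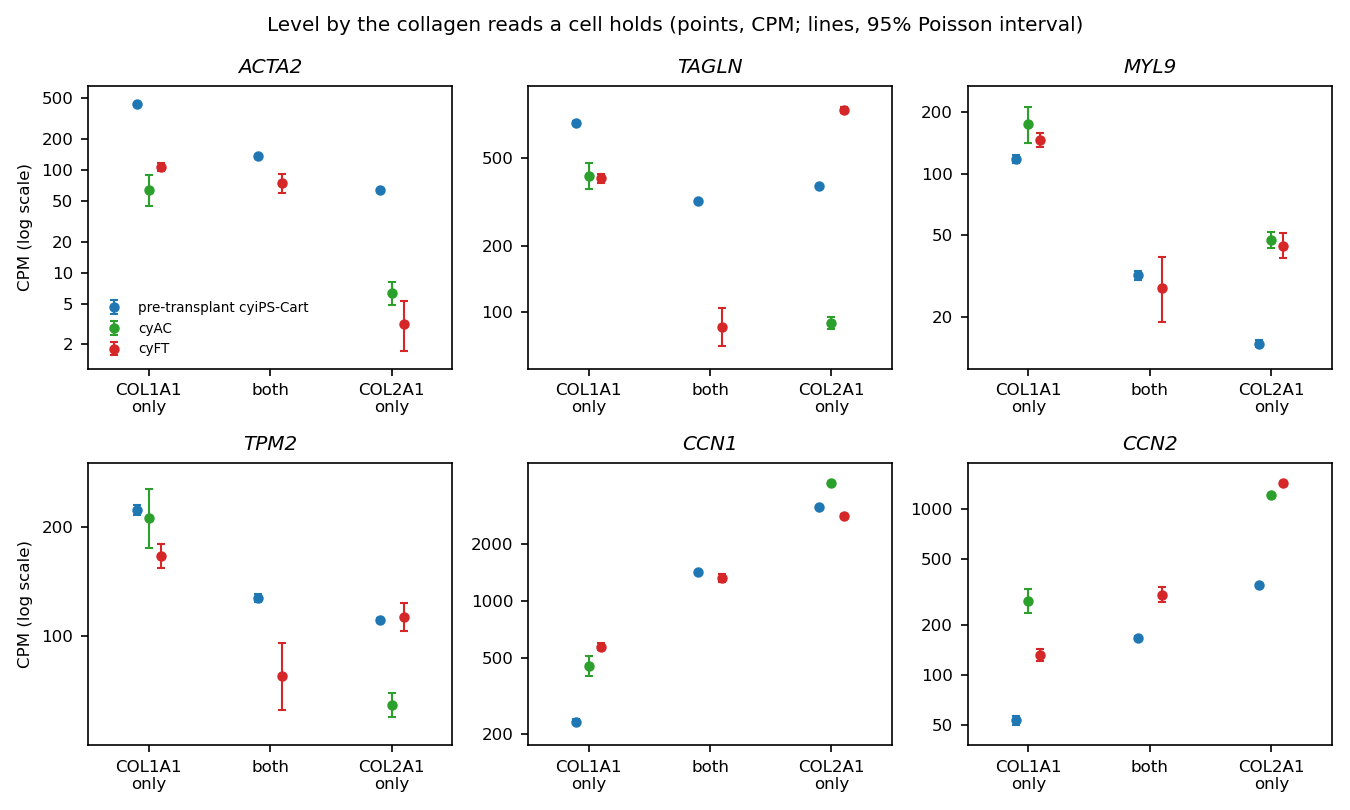
Level of 6 genes (y axis, CPM on a log scale that differs between panels) in cells with *COL1A1* reads only, both *COL1A1* and *COL2A1*, or *COL2A1* only (x axis), for pre-transplant cyiPS-Cart, cyAC and cyFT, with 95% Poisson intervals. *CCN1* and *CCN2* climb towards *COL2A1*-only cells in all 3 samples, *ACTA2* descends, and *TAGLN* reaches 821 CPM in the *COL2A1*-only cells of cyFT; the 3 cyAC cells with both collagens are not drawn.

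Since cyFT held more *COL1A1* cells than cyAC, the tissues were compared again among *COL2A1*-only cells, an alternative chosen after seeing the data. *TAGLN* was 9.17-fold (8.53–9.87) higher in the 84 cyFT cells than in the 276 cyAC cells (821 against 89.5 CPM), above its ratio over all cells. *ACTA2* was 3.12 against 6.30 CPM, from 14 and 65 reads, so that the direction seen over all cells was reversed (log2 ratio −0.82) and its level was below the filter. *MYL9* was at 44.6 against 47.5 CPM, a ratio whose interval (0.793–1.11) spans 1. *CCN1* (2823 against 4191 CPM) and *CCN2* (1429 against 1213 CPM) were within 2-fold. Of 6 genes past the filter, *TAGLN* alone was past 2-fold, higher, against 7.96% higher and 7.86% lower of 7502 genes (15.8% in either direction). Osteoblast markers were higher in the same cells of cyFT, with *IBSP* at 2578 against 32.8 CPM (39.3% against 1.45% of cells), *ALPL* at 140 against 0.0969 CPM and *BGLAP* at 34.1 against 9.11 CPM. In the 45 cyFT and 251 cyAC cells of this kind without reads of any osteoblast marker, *TAGLN* was at 801 against 84.6 CPM, a log2 ratio of 3.23. In the 39 such cyFT cells with osteoblast marker reads it was at 836 CPM. The *TAGLN* difference was thus as large without these cells, and *ACTA2* and *CCN1* did not pass 2-fold in either set.

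Among *COL2A1*-only cells of the organoid, *TAGLN* was 25.1-fold (22.5–28.0) lower after transplantation (14.7 against 369 CPM, in 18.5% against 59.9% of cells) and *ACTA2* 6.61-fold (5.75–7.62) lower (10.3 against 67.8 CPM). *CCN2* was 2.52-fold (2.42–2.63) lower (143 against 362 CPM), and *TPM2* was at 105 CPM in both. Of 7 genes, 3 were past 2-fold lower and 0 higher, against 18.7% and 9.7% of 7522 genes (28.4% in either direction). Against the *COL2A1*-only cells of cyAC, *CCN2* was 8.46-fold (8.15–8.78), *MYL9* 7.07-fold (5.92–8.49), *TAGLN* 6.08-fold (5.38–6.88) and *ANKRD1* 2.48-fold (2.14–2.86) lower in post-transplant cells. These were 4 of 7 genes lower and 0 higher, against 17.0% and 11.6% of 7584 genes (28.5% in either direction). With *COL1A1* cells left out, the ratios of *TAGLN* were thus larger in both comparisons, that of *MYL9* was larger over cyAC and smaller over the organoid before transplantation, and those of *ACTA2*, *CCN2* and *ANKRD1* past 2-fold were nearly as before.

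Contractile genes were then counted per cell at equal depth. Of thinned cells, 17.9% of pre-transplant cyiPS-Cart (57 of 319), 0.938% of post-transplant cyiPS-Cart (3 of 320), 2.92% of cyAC (9 of 308) and 12.5% of cyFT (36 of 288) had reads of at least 3 of the 5 contractile genes. Cells with none of the 5 made up 14.4%, 48.8%, 43.8% and 25.7%. Cells with 2 of them made up 32.6%, 7.5%, 16.9% and 23.6%. By these counts cyFT lay between post-transplant cyiPS-Cart or cyAC and the organoid before transplantation. In the cyiPSC library, thinned to 30967 reads, 96.5% of cyiPSC and 26.6% of pre-transplant cells had at least 3.

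**Figure D5:**
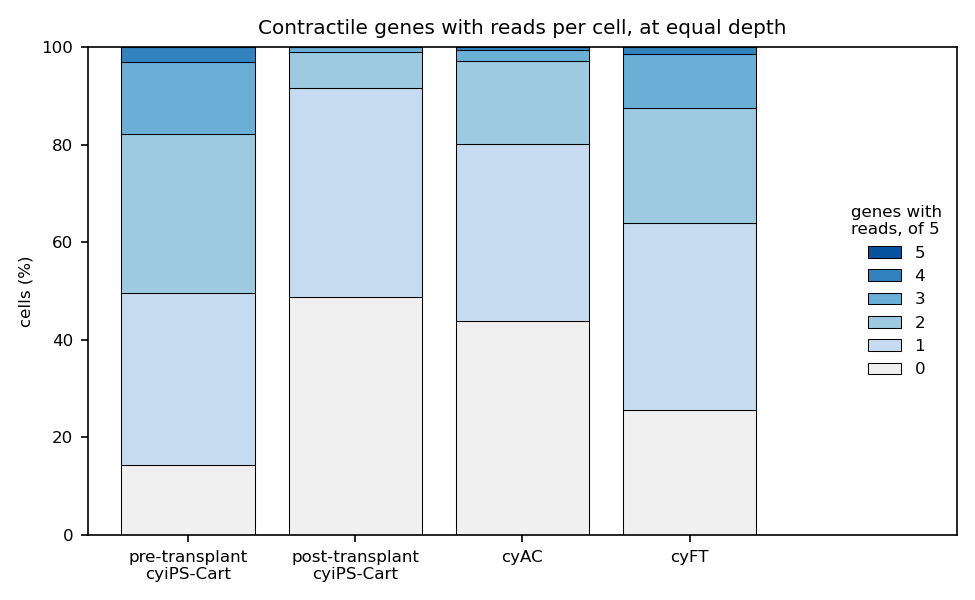
Share of cells (y axis, %) by the number of contractile genes, of 5, with reads at 12191 reads per cell, in the 4 sets of 320 cells (x axis, 288 to 320 cells after thinning). Cells with 3 or more are 17.9% of pre-transplant cyiPS-Cart and 12.5% of cyFT, against 0.938% of post-transplant cyiPS-Cart and 2.92% of cyAC.

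Reads of pairs of genes were then counted in the same thinned cells, as a description. In cyFT, *TAGLN* reads were in 51.9% of the 27 thinned cells with *ACTA2* reads and in 41.4% of those without. *MYL9* reads were in 37.7% of cyFT cells with *TAGLN* reads against 22.3% of those without, and in 33.3% against 28.4% by *ACTA2* reads. *CCN2* reads were in 78.0% of cyFT cells with *CCN1* reads against 53.5% of those without, and in 79.0% against 50% of pre-transplant cells. The same pair gave 92.1% against 83.6% in cyAC and 32.4% against 25% in post-transplant cyiPS-Cart, and *TAGLN* reads were in 38.5% of the 13 cyAC cells with *ACTA2* reads against 23.1% of the others. *CCN2* reads were in 69.5% of the 59 pre-transplant cells with *ACTA2* reads against 74.2% of those without, and in 77.8% against 65.9% of cyFT cells.

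The cells with *ACTA2* reads were examined for markers of smooth muscle and vessels. Of the 38 such cells in cyFT, 32 (84.2%) had *COL1A1* reads, against 171 of 282 (60.6%) of the others. In pre-transplant cyiPS-Cart it was 44.8% of 736 cells against 21.4%. The 38 cyFT cells had 0 reads of *RGS5*, *ACTG2*, *DES*, *MYOCD*, *KCNMB1* and *LMOD1*, which are genes of smooth muscle and pericytes, and *MYH11*, the smooth muscle myosin, was found in 1 of them (4.74 CPM, against 11.5 CPM in the others). They had 0 reads of the endothelial genes *VWF*, *CDH5*, *KDR*, *EMCN* and *TEK*, and *PECAM1* was found in 1 of them. *PDGFRB*, a receptor of fibroblasts and pericytes, was at 154 against 97.6 CPM, *MCAM* at 31.1 against 10.3 CPM, and *CSPG4*, a pericyte gene, at 33.2 against 34.6 CPM with reads in 6 of the 38. *ACTG2*, *MYOCD*, *LMOD1*, *KDR* and *EMCN* had 0 reads in the other 282 cyFT cells too, so their 0 is that of the whole sample and not particular to the cells with *ACTA2* reads. *RGS5*, *DES*, *KCNMB1*, *VWF*, *CDH5* and *TEK* were in at most 1.77% of those 282 cells. A 0 among 38 cells therefore does not set the cells with *ACTA2* reads apart for these genes either.

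Over whole samples, the 10 listed smooth muscle and pericyte markers summed to 1229 CPM in cyiPSC, 82.7 in pre-transplant cyiPS-Cart, 57.6 in post-transplant cyiPS-Cart, 56.1 in cyAC and 168 in cyFT. Within cyFT they were at 272 CPM in cells with *COL1A1* reads and 65.8 CPM in cells without, with 5 and 3 of the 10 at 0. *PDGFRB* (207 against 5.35 CPM) was the 1 marker past 2-fold higher and *MYH11* (6.02 against 15.2 CPM) the 1 past 2-fold lower. Markers of macrophages and other immune cells moved the opposite way in cyFT, at 30.7 against 1471 CPM, as did osteoblast markers, at 8.03 against 2199 CPM. Without the 23 cells that held at least 3 of either set, *ACTA2* and *MYL9* remained past 2-fold higher and *CCN1* and *CCN2* past 2-fold lower in the cells with *COL1A1* reads. In post-transplant cyiPS-Cart, immune markers summed to 4.72 CPM and endothelial markers to 0.469 CPM.

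Genes most like each set of genes were found by Spearman's rank correlation across cells with the summed level of the set. This is a description over cells of 1 library, which share depth and background correction. Each sum follows its highest gene most. That gene was *TAGLN* among the contractile genes (504 CPM in cyFT, 384 CPM in pre-transplant cells). Among the YAP targets it was *CCN1* (1548 and 2553 CPM), with *ANKRD1* at 35.9 and 18.0 CPM. In the 320 cyFT cells, the contractile sum went with *TPM4* (0.38), *ACTG1* (0.36), *FLNA* (0.33), *ACTB* (0.31) and *FAM126B* (0.31), of which all but the last encode proteins of actin filaments. In the 3527 pre-transplant cells it went with *ACTB* (0.30), *TPM4* (0.29), *ACTG1* (0.28), *CALD1* (0.26) and *THBS1* (0.22). *TPM4*, *ACTG1* and *ACTB* were thus in both lists of 5.

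The YAP target sum of cyFT cells went with *COL2A1* (0.63), *CNMD* (0.57), *FGFBP2* (0.56), *CHAD* (0.56) and *COL9A1* (0.56). *COL2A1*, *CNMD*, *CHAD* and *COL9A1* are genes of cartilage matrix. At the other end were *ECM1* (−0.58), *CTSK* (−0.48), *VIM* (−0.45), *TNC* (−0.44) and *COL14A1* (−0.42). In pre-transplant cells the YAP target sum went with *API5* (0.59), *AMOTL2* (0.43), *FAM126B* (0.40), *RCAN1* (0.39) and *XRCC1* (0.36), and *AMOTL2* is itself a YAP target. Lowest there was *COL1A1* (−0.41), followed by *ECM1* (−0.36). Both tissues thus had *ECM1* at the low end of the YAP target sum, which follows mainly *CCN1*. Neither had another YAP target at the high end except *AMOTL2* in the organoid.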

How the data were processed

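Transcriptomes of the 5 samples in 3 libraries were used, and the 3 hashtag libraries were not used here. The count tables that the authors deposited hold reads by gene and cell, in a table of cyiPSC with pre-transplant cyiPS-Cart and a table of 4 samples cut to 320 cells each. The submitters' processing notes name cutadapt 3.4, Bowtie2 2.4.2, R 3.6.3 and the human build GRCh38, with no role given. Per the study's methods, the authors assigned reads with Bowtie2 to Ensembl transcripts of Macaca_fascicularis_6.0, kept cells above the knee-plot inflection, told pooled samples apart by hashtag, zeroed low counts of highly expressed genes as background, and removed cells by mitochondrial share at a threshold not given in the sources used here. This correction removes low counts, which lowers shares of cells and can exaggerate differences of *TAGLN*, *ACTA2*, *CCN1* and *COL1A1*. Of the symbols, 94.9% matched a RefSeq gene table of another assembly (T2T-MFA8v1.1), used for names only. No sequences or coordinates are printed.

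Cells were taken to samples by the prefix of the cell name. Of the larger set, 300 pre-transplant cells recur in the second matrix with identical counts, and comparisons with cyiPSC and within pre-transplant cells use the larger set. Per group, reads were summed to CPM over all listed genes, with exact Poisson, Clopper-Pearson and conditional ratio intervals at 95%. Log2 ratios have a pseudocount of 1 CPM and understate low genes. With 1 sample per group no test was run. For equal depth, cells were thinned to the 10th percentile of the shallowest group compared. This was 12191 or 30967 reads for shares of cells and pairs of genes, 11065 and 29769 reads for the *COL1A1* splits of cyFT and pre-transplant cyiPS-Cart, and 30452 and 16101 reads for the alternatives of post-transplant cyiPS-Cart over the organoid before and over cyAC. The first 2 depths left out 1, 0, 12 and 32 cells of the 4 sets of 320 and 60 and 353 of cyiPSC and pre-transplant cells. Doublets called by scrublet (14 of the cells of the first matrix, 0.232%, too few for the caller to have worked, and 26, 8, 2 and 2 in the sets of 320) were kept. Thinning and ratios were tested on simulated data. The genes, lists and alternatives were chosen with earlier results of these data known. Named are all 9 genes and the 5 most like each sum. The list genes named are a selection and not always the 3 with the largest log2 ratio. Not every list is given for every comparison. NumPy 2.4.6, SciPy 1.17.1, pandas 2.3.3, Scanpy 1.11.5 and edgeR 4.0.16 (TMM factors on the summed deposited counts only) were used.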

Additional observations from a re-analysis of the deposited data

Results flagged for a closer look

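*TAGLN* differed in opposite directions between cells with and without *COL1A1* reads. In cyFT its log2 ratio of cells with over cells without was −0.98, in post-transplant cyiPS-Cart it was 3.27 and in cyAC 2.08. With 1 sample of each tissue, these differences between tissues were not tested. The 7 *COL1A1*-only cells of post-transplant cyiPS-Cart and the 16 of cyAC held 53.5% and 19.6% of the *TAGLN* reads of their samples.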

How the results depend on the processing

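With 1 sample per condition nothing could be left out as a replicate. No paired analysis was possible because no condition has more than 1 sample and no result comes from a test. For the 4 comparisons of samples and the *COL1A1* splits of cyFT and pre-transplant cyiPS-Cart, counts of genes past 2-fold stayed within 1.5 times of those reported except as follows. At 4-fold they were 4 of 8 for pre-transplant cyiPS-Cart over cyiPSC (7 at 2-fold), 2 for post-transplant cyiPS-Cart over cyAC (4), 2 for the *COL1A1* split of cyFT (4) and 0 for that of pre-transplant cyiPS-Cart (4). The splits of post-transplant cyiPS-Cart, cyAC and cyiPSC were rerun with other folds only, after seeing the data, and had 1, 3 and 0 at 4-fold (4, 6 and 4 at 2-fold). At 1.5-fold, cyFT over cyAC had 6 (3 at 2-fold). With the filter at 50 CPM and 25% of cells, post-transplant cyiPS-Cart over cyAC had 2. Split by *COL1A2* reads, which nearly all cells held and which thus part other cells, pre-transplant cyiPS-Cart had 0. Among *COL2A1*-only cells, cyFT over cyAC had 1, and *ACTA2* was reversed at −0.82 (1 and −0.68 without cells with osteoblast marker reads). Of 515 log2 ratios under an alternative, 317 stayed within their counting interval, 196 moved beyond it and 2 of *ACTA2* (cyFT over cyAC) reversed a value past 2-fold, and the cause was not tested. Of the ratios short of 2-fold, 9 took the opposite sign under at least 1 alternative. *CCN2* of cyFT over cyAC went from −0.68 to 0.45 and *MYL9* from 0.68 to −0.09.

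*TAGLN* of post- over pre-transplant cyiPS-Cart (−3.21) was −3.82 with the mean of per-cell CPM, −4.20 without the top 1% of cells and −4.29 with the stricter filter on cells. Its ratio over cyAC (−1.32) was −1.74 with that mean, −2.10 without the top 1%, −2.33 with the stricter filter and −2.52 among *COL2A1*-only cells. *ACTA2* in the cyFT split (4.05) was between 2.87 (pseudocount of 10 CPM) and 4.71 (without the top 1%). *ANKRD1* of post-transplant cyiPS-Cart over cyAC (−1.26) was −0.92 with a pseudocount of 10 CPM. *MYL9* of the same comparison (−2.36) was −3.01 without the top 1% and −1.66 with that pseudocount. Beside the shift of 0.67 given above, TMM factors moved the log2 ratios of post- over pre-transplant cyiPS-Cart up (*CCN1* to 0.47 from 0.24) and those of cyFT over cyAC down (*TAGLN* to 2.17 from 2.35). Depth limits *CNN1*, *ACTA2* in *COL2A1*-only cyFT cells, and every value from under 20 cells.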

Other observations

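*TNNT3*, a troponin gene of fast skeletal muscle that was singled out after its values were seen, stood at 0.243 CPM in cyiPSC, 14.7 in pre-transplant cyiPS-Cart, 28.4 in post-transplant cyiPS-Cart, 138 in cyAC and 936 in cyFT. In cyFT it was at 1772 CPM in cells with *COL1A1* reads (80.3% of them) and at 120 CPM in cells without (40.2%). *ACTA1*, the other listed gene of 7 skeletal muscle markers, was at 0 in cyFT.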
